A study of Mus musculus with 8 samples.

Results

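The genes described here are the mouse major histocompatibility complex (MHC) class II genes and their closest partners: Cd74, H2-Aa, H2-Ab1, H2-Eb1, H2-DMa, H2-DMb1 and Ciita. They were taken by symbol from the deposited gene lists, and each symbol had 1 identifier, present in both sequencing runs. They are 7 of the 30406 gene identifiers that the runs share, and the rule uses their symbols alone. Their transcripts were followed through 8 single-cell RNA-seq libraries of sorted vascular cells, in arterial-, capillary-, venous- and lymphatic-like endothelial cells and in the macrophage-like and B cell-like cells of the same libraries.

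The study sequenced cells from the mesentery and from the epididymal adipose tissue of male mice that carried a Cre recombinase driven by the endothelial Cdh5 promoter (Cdh5-CreERT2+) and a yellow fluorescent reporter (ROSA26-eYFP+/+). All mice received tamoxifen in their food from 6 weeks of age for 2 weeks, which switches the reporter on in endothelial cells. From 8 weeks of age they ate either chow with 5.8% fat or a diet with 60% fat, for 12 to 13 weeks, so every group shares the reporter, the Cre and the tamoxifen. The question the design puts is what the high-fat diet changes in the vessels of either tissue. The groups were mesentery chow, mesentery high fat, adipose chow and adipose high fat. Each library held cells pooled from 6 mice, with 5000 cells targeted, sorted for the reporter (by a gate that is not described in the labels) with actinomycin D, which blocks new transcription, in the buffers, and made with 10x 3′ chemistry. The experiment was done once as run A and once as run B, so each group has n = 2 pools and the pool is the unit of replication.

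MHC class II molecules carry peptides from outside the cell to its surface and show them to CD4+ T cells. H2-Aa and H2-Ab1 encode the alpha and beta chains of I-A, the mouse class II molecule, and H2-Eb1 the beta chain of I-E. Cd74 encodes the invariant chain, which fills the peptide groove and guides class II molecules through the cell. H2-DMa and H2-DMb1 encode H2-DM, which exchanges a fragment of the invariant chain for a peptide. Ciita encodes the transactivator that switches these genes on together. B cells, macrophages and dendritic cells make class II molecules at rest, and endothelial cells can be induced to make them by interferon gamma.

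The promoters of these genes are known for shared boxes through which the transactivator acts, and the stretch before the start is shown for the 3 members whose windows held the letters marked here. The sequences are RefSeq windows on GRCm38.p6, the assembly called mm10 in the submitters' processing notes, and 4 of the 7 members had a window (H2-Aa, H2-Eb1, H2-DMa and H2-DMb1). Each line gives the 150 bases before the start, 5′ to 3′ on the gene's strand, at chr17:34287824-34287973 (minus strand) for H2-Aa, chr17:34305717-34305866 (plus strand) for H2-Eb1 and chr17:34153041-34153190 (plus strand) for H2-DMb1, and the capitals mark the letters of a Y box (TGATTGG) and of an X box (AACNGATG).
H2-Aa: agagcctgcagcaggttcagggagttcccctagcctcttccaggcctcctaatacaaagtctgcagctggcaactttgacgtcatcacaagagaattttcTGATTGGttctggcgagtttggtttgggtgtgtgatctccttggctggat
H2-Eb1: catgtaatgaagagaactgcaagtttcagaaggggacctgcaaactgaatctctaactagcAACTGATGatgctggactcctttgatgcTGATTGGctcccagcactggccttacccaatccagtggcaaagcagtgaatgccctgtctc
H2-DMb1: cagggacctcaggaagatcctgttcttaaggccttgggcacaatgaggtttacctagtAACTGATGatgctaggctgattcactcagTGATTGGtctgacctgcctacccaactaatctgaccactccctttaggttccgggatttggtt
Both letter strings were chosen after these sequences were read, were searched on both strands and do not overlap each other. The Y letters began 50 bases before the start in H2-Aa, 61 in H2-Eb1 and 63 in H2-DMb1, and the X letters began 89 bases before it in H2-Eb1 and 92 in H2-DMb1, which leaves 20 and 21 bases between the boxes. Of all 32851 promoter windows, running from 250 bases before to 50 after a start, 7.82% held the Y letters, 2.32% the X letters and 0.186% (61 windows) both. Neither string matched in the 2 windows of H2-DMa, which says only that these letters are not there.

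The 8 libraries held 27944 cell barcodes, and 23035 cells were used after filters. Total UMI counts (unique molecular identifiers, 1 per captured transcript) were 3461360 to 6714473 per library in run A and 18829960 to 36779289 in run B, so counts in run A are the less precise. Pairs of libraries shared 0 to 10 barcodes. Clustering was done without 11 class II genes and gave 25 clusters. By marker genes these held 3197 arterial-like cells (clusters 4 and 6), 5638 capillary-like (1 and 2), 2578 venous-like (7 and 8) and 2470 lymphatic-like cells (5 and 12). The labels call the samples endothelial, but 798 cells were macrophage-like, 360 B cell-like, 416 T cell-like, 899 mural-like and 713 fibroblast-like, and 18294 cells (79.4%) were endothelial in all, some in clusters that stayed unnamed. The macrophage-like cluster carried Lyz2 in 98.3% of its cells, Csf1r in 90.1% and C1qa in 79.8%. Of dendritic cell markers it had Batf3 in 43.4% and Itgax in 24.2% of cells, and Flt3 in 3.13%.

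Among the 4 named endothelial classes, class II transcripts were most abundant in venous-like cells. Levels are given as CPM, the UMIs of a gene over all UMIs of the cells of a class in 1 library, scaled to a total of 1000000. Cd74 stood at 63.6 to 1137 CPM (median 210.9) in the 8 venous-like sums, at 16.1 to 417 (median 72.2) in lymphatic-like, 6.34 to 337 (median 32.4) in capillary-like and 14.4 to 103 (median 35.1) in arterial-like cells. The ranges overlap across libraries, but within each library the venous-like level exceeded the arterial-like level in 8 of 8 and the capillary-like level in 8 of 8, and exceeded the lymphatic-like level in 7 of 8, the exception being adipose high fat of run B. The order of the medians was venous-, lymphatic-, arterial- and capillary-like, and the last 2 did not differ beyond their spread.

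**Figure D1:**
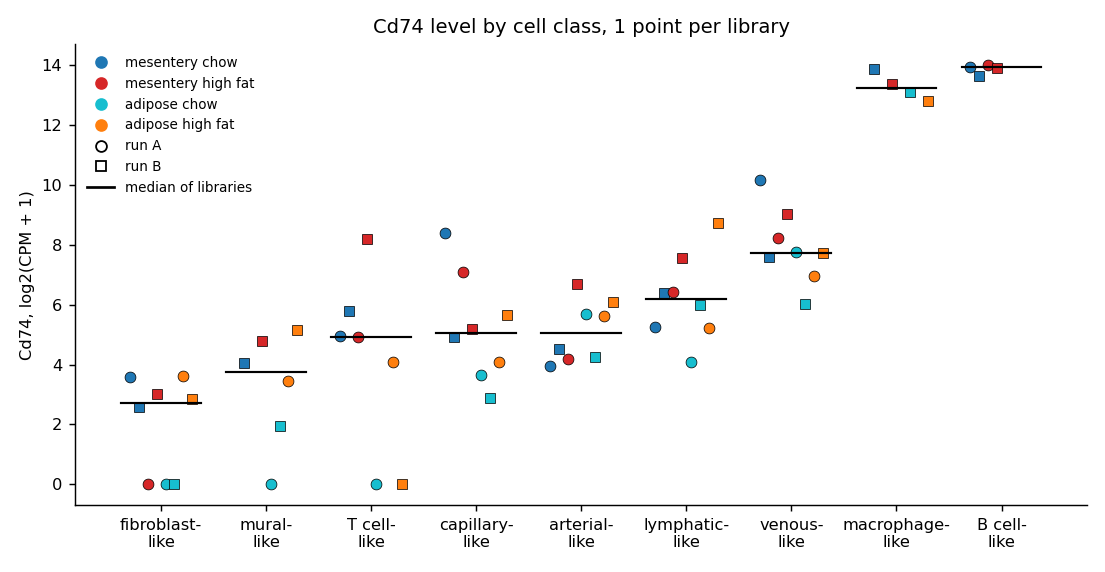
Cd74 level by cell class, as log2(CPM + 1) on the vertical axis, for 9 classes along the horizontal axis. Each point is 1 library with at least 20 cells of the class, coloured by group, with circles for run A and squares for run B, and the line is the median. B cell-like and macrophage-like sums lie above all others, and venous-like sums are the highest of the 4 endothelial classes by median.

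All 7 members were higher in venous-like than in arterial-like cells in edgeR's quasi-likelihood test, which fits all 10027 genes with the library as a block. In that comparison 18.4% of all genes passed an adjusted p of 0.05, and 9.54% of all genes did so in the higher direction. The 7 members had a median log2 difference of 2.76, beside 0.01 for all genes. Cd74 was 7.26-fold higher (log2 2.86 ± 0.52 SE, edgeR adjusted p = 2.5e-05). H2-Eb1 had a median of 72.7 CPM in venous-like and 6.12 in arterial-like sums and the largest log2 difference of the 7 (3.12 ± 0.45, edgeR adjusted p = 1.7e-07). H2-DMb1 had medians of 33.3 and 5.81 CPM and a log2 difference of 2.79 ± 0.39. For H2-Aa (medians 82.5 and 14.0 CPM), H2-Ab1 (68.1 and 16.5) and H2-DMa (13.7 and 4.76) the log2 differences were 2.76 ± 0.44, 2.30 ± 0.46 and 2.30 ± 0.40. The structural chains and Cd74 moved together with the peptide exchanger in this comparison. The venous-like sum was the higher in 8 of 8 libraries for Cd74, H2-Aa, H2-Ab1, H2-Eb1 and H2-DMb1, and in 7 of 8 for H2-DMa. Leaving out each library in turn left 6 or 7 members past the threshold.

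Ciita, the transactivator, was sparse everywhere in the endothelium. It stood at 0 to 11.5 CPM in venous-like sums, with 0 UMIs in 3 of the 4 run A libraries, and at 0 to 1.31 CPM in arterial-like sums, which held 12 UMIs in all against 54 in venous-like sums. Its log2 difference between these classes was 2.25 ± 0.52 (edgeR adjusted p = 8.3e-04), and venous-like exceeded arterial-like in 5 of 8 libraries.

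No member passed edgeR's adjusted p in capillary-like against arterial-like cells, where 17.5% of genes did (Cd74, log2 0.09 ± 0.57). Of the 7, 1 had an unadjusted p under 0.05 (H2-DMb1, log2 -1.03 ± 0.48), and DESeq2 also called 0. Against venous-like cells all 7 were lower in capillary-like cells (20.3% of genes differed, 11.2% lower), with a median log2 difference of -2.83 beside 0.03 for all genes. H2-DMb1 differed most (median 2.36 CPM in capillary-like and 33.3 in venous-like sums; log2 -3.82 ± 0.43, edgeR adjusted p = 4.2e-10). Capillary-like cells of run A mesentery are few (48 and 43 cells), and the highest capillary-like Cd74 levels, 337 and 136 CPM, rest on 46 and 15 UMIs from them.

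Lymphatic-like cells lay between. Against arterial-like cells 5 of 7 members were higher (35.9% of genes differed, 17.2% higher), with a median of 1.27 beside 0.01 for all genes: Cd74 (log2 1.27 ± 0.51, edgeR adjusted p = 0.044), H2-Aa (1.25 ± 0.44), H2-Ab1 (1.33 ± 0.45), H2-Eb1 (1.70 ± 0.44) and Ciita (1.77 ± 0.61). For H2-DMa (0.34 ± 0.50) and H2-DMb1 (1.02 ± 0.45) edgeR's adjusted p was 0.66 and 0.074. This count is the least stable of the class comparisons. It was 2 without mesentery chow B or adipose high fat B, 3 without mesentery high fat B, 6 without mesentery chow A, and 3 in endothelial cells free of immune marker UMIs. Venous-like cells exceeded lymphatic-like cells for 5 members (31.3% of genes differed, 16.8% higher), among them Cd74 (1.59 ± 0.49, edgeR adjusted p = 0.0083) and H2-DMa (1.96, with 0 UMIs in the lymphatic-like sums of both run A chow libraries). H2-Ab1 (0.98 ± 0.42) and Ciita (0.47 ± 0.49) did not pass in it, and the median over the 7 was 1.51, beside 0.00 for all genes. Capillary-like cells were lower than lymphatic-like cells for 4 members (35.8% of genes differed, 17.6% lower): H2-Aa, H2-Ab1, H2-Eb1 and H2-DMb1.

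**Figure D2:**
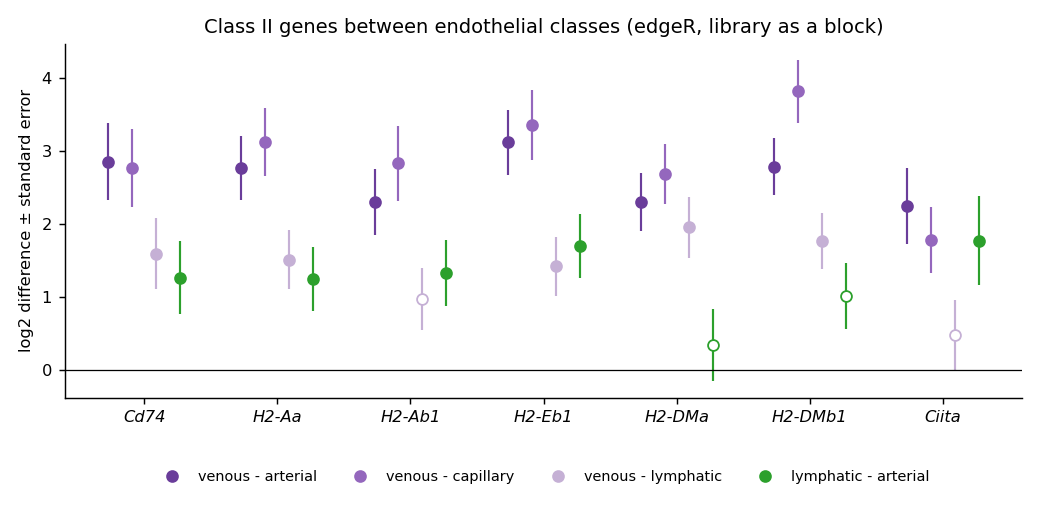
Log2 difference of each member between endothelial classes, with its standard error as the bar, for venous-like minus arterial-like, venous-like minus capillary-like, venous-like minus lymphatic-like and lymphatic-like minus arterial-like cells. Filled points passed edgeR's adjusted p of 0.05 and open points did not; all 7 members are filled and above 0 in the first pair of comparisons.

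Macrophage-like and B cell-like cells held class II transcripts at levels far above any endothelial class. At least 20 macrophage-like cells were found only in the 4 run B libraries, where Cd74 stood at 14930 CPM in mesentery chow, 10490 in mesentery high fat, 8708 in adipose chow and 7099 in adipose high fat. B cell-like cells came nearly all from mesentery, with Cd74 at 15560 CPM in run A and 12520 in run B on chow, and 16270 and 15200 on the high-fat diet. None of these sums overlaps a sum of the 4 endothelial classes, the highest of which was 1137 CPM. All 7 members were higher in macrophage-like cells than in the mean of the 4 endothelial classes (57.8% of genes differed, 30.9% higher), with a median log2 difference of 7.41 beside 0.02 for all genes, and all 7 in B cell-like cells (47.4% differed, 20.6% higher), with a median of 6.88 beside -0.21. That last shift of all genes applies to every B cell difference given here. Cd74 was 7.41 ± 0.43 log2 units higher in macrophage-like and 7.37 ± 0.42 in B cell-like cells.

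Some members stood at different levels in macrophage-like and B cell-like cells. H2-DMb1 stood at 277 to 525 CPM in macrophage-like sums and at 81.8 to 211 in B cell-like sums, and its log2 difference from the endothelium was 5.84 and 4.002. Ciita was the other way round, at 41.0 to 119 CPM in macrophage-like and 170 to 230 in B cell-like sums (5.70 and 6.72). The B cell-like and macrophage-like ranges of both genes do not overlap, but the difference between these classes was not tested. H2-DMb1 and its near-identical copy H2-DMb2 may share reads, so their split is uncertain. As counted, they had 139 and 512 UMIs in B cell-like cells, 3510 and 167 in macrophage-like cells and 492 and 2 in venous-like cells.

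The other class II genes were largely those of B cells. H2-Eb2, and H2-Oa and H2-Ob, which form an inhibitor of H2-DM, averaged 103.8 ± 65.5, 272 ± 89.3 and 490.6 ± 75.6 CPM (SD, n = 4 libraries) in B cell-like cells. H2-Eb2 and H2-Oa had 0 UMIs in venous-like and in arterial-like cells. In macrophage-like cells H2-DMb2 and H2-Oa stood at 226 and 53.2 CPM in mesentery chow B and at no more than 12.1 and 6.05 in the other run B libraries. The symbol H2-Ea was not in the gene list of run B, from which symbols were taken, so the alpha chain of I-E is not analysed here.

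Taken as a mean, the 4 endothelial classes also exceeded the mural-like and fibroblast-like cells sorted with them for some members. Cd74 stood at 0 to 34.8 CPM in mural-like and 0 to 11.2 in fibroblast-like sums, below the venous-like range. Over the 4 endothelial classes, 4 members were higher than in those cells (46.7% of genes differed, 21.6% higher): Cd74 (3.32 ± 0.50, edgeR adjusted p = 1.1e-07), H2-Aa (2.09), H2-Ab1 (2.59) and H2-Eb1 (1.85). H2-DMa (0.93), H2-DMb1 (0.18) and Ciita (1.29) did not pass, and the median over the 7 was 1.85 beside 0.01. Single endothelial classes were not tested against mural-like or fibroblast-like cells. The mural-like Cd74 range overlapped those of arterial-like (14.4 to 103 CPM), capillary-like (6.34 to 337) and lymphatic-like sums (16.1 to 417).

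The venous-like signal was spread over many cells. With each cell thinned to 1000 UMIs, Cd74 was found in 20.7% of 2386 venous-like cells, 4.69% of lymphatic-like, 2.81% of arterial-like and 2.44% of capillary-like cells, against 76.3% of macrophage-like and 99.7% of B cell-like cells. In fibroblast-like cells, which should lack the gene, the share was 0.383%, and in mural-like cells 1.16%. Without thinning, the venous-like share was 35.3% (exact 95% binomial interval 33.5 to 37.2; median depth 4106 UMIs) and the fibroblast-like share 1.82% (median depth 2103 UMIs). The venous-like share varied from 3.60% (adipose chow B) to 46.1% (mesentery chow A) between libraries. At 1000 UMIs, H2-Aa was found in 11.2% of venous-like cells, H2-Eb1 in 9.05%, H2-Ab1 in 8.59%, H2-DMb1 in 3.73%, H2-DMa in 2.18% and Ciita in 0.671%. These intervals cover counting error only.

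**Figure D3:**
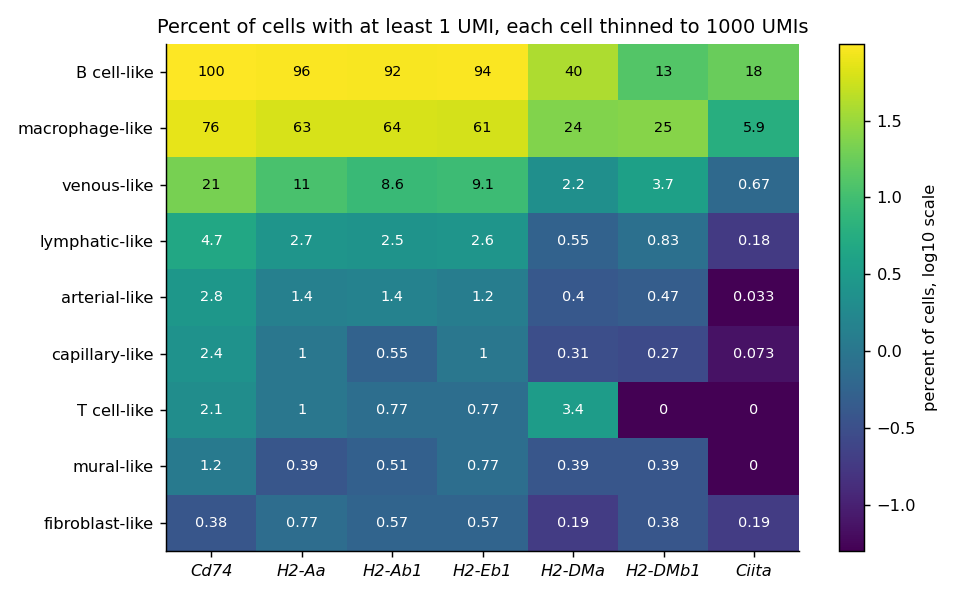
Percent of cells with at least 1 UMI of each member after thinning every cell to 1000 UMIs, for 9 classes (rows) and 7 members (columns), with the rounded percent in each field and the colour on a log10 scale. B cell-like and macrophage-like rows are the highest, and the venous-like row follows, with 20.7% for Cd74.

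The top 1% of cells held 50.0% of the members' UMIs in arterial-like cells (32 cells), 43.7% in lymphatic-like, 36.9% in capillary-like and 14.8% in venous-like cells. In single libraries this share was 19.1% to 65.7% in arterial-like and 7.475% to 44.7% in venous-like cells, the lower one within each library. The highest venous-like share, in adipose chow A, was that of 1 cell. Arterial-like cells held 1560 of these UMIs and venous-like cells 10392, and fewer UMIs raise the share by themselves. Cells with at least 2 of Cd74, H2-Aa, H2-Ab1 and H2-Eb1 made up 30.3% of venous-like cells (781 cells), 5.67% of lymphatic-like, 3.32% of arterial-like and 3.03% of capillary-like cells. Of those 781 venous-like cells, 0.256% held a UMI of the leukocyte gene Ptprc and 1.02% held at least 3 macrophage markers. In venous-like cells with none of the 4 genes, the macrophage marker share was 0.0746%. Among the 781 it was 0% in mesentery chow A (346 cells) and 8.0% in adipose high fat B (75 cells). Among the corresponding capillary-like cells 19.9% held at least 3 macrophage markers, and 37.0% did in adipose high fat B, while the arterial-like share was 4.72% and the lymphatic-like share 1.43%.

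Macrophage transcripts were counted beside the members in each class. The 4 abundant macrophage genes C1qa, C1qb, C1qc and Lyz2 together gave 2.87 UMIs per Cd74 UMI in macrophage-like cells, 1.64 in capillary-like, 0.618 in arterial-like, 0.0948 in lymphatic-like and 0.0593 in venous-like cells. In mesentery chow A, where venous-like Cd74 was highest and 1 macrophage-like cell was found, the venous-like ratio was 0.0021. Cd74 is the denominator of this ratio, so a class with much Cd74 has a low ratio by itself. The sum alone stood at 42.2 CPM in capillary-like, 29.5 in arterial-like, 25.7 in venous-like and 10.75 in lymphatic-like cells, all libraries summed. Over all endothelial cells the 11 macrophage markers summed to 50.5 to 281 CPM (86.9 and 64.6 in mesentery chow, 158 and 66.3 in mesentery high fat, 222 and 50.5 in adipose chow, 281 and 182 in adipose high fat, run A first), with 6 to 11 of 11 above 0. Csf1r and Adgre1 were at 0 in all 4 libraries of run A, and no marker was at 0 in the high-fat libraries of run B. When the comparison was repeated on the 11461 endothelial cells (62.6%) with no UMI of a macrophage, dendritic, B, plasma or T cell marker or of Ptprc, all 7 members remained higher in venous-like than in arterial-like cells, with Cd74 at log2 2.79.

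With genes of low counts filtered out, no difference between diets or tissues in any member passed edgeR's test when the runs were not matched. Over all 30 comparisons of diet, tissue and their interaction (all endothelial cells, the 4 classes and macrophage-like cells), edgeR called 0 of 185 member tests, 23 had an unadjusted p under 0.05, and DESeq2 called 1 (Cd74 between tissues on chow in all endothelial cells). With no filter edgeR called 1 member for diet in mesentery arterial-like cells, 1 for tissue on chow in capillary-like cells, 4 for tissue on chow in venous-like cells and 2 for diet in adipose lymphatic-like cells. Across all genes, percent called was 0 in 28 of them and 0.0292 and 0.0146 in the others, both in macrophage-like cells, so a call of any gene was rare at n = 2. Ciita was too sparse to be tested in the 4 classes, and H2-DMa in lymphatic-like cells. Libraries of the same run deviated together in every endothelial class, and the fits with run as a block are given beside the values below.

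In arterial-like cells of the mesentery, class II transcripts were higher on high fat in run B. In runs A and B, Cd74 stood at 14.4 (11 UMIs) and 21.7 CPM in mesentery chow, at 17.2 (6 UMIs) and 103 in mesentery high fat, at 49.9 and 17.9 in adipose chow and at 48.5 and 66.8 in adipose high fat. In mesentery the chow and high-fat values of Cd74 overlap across runs but not within them, at a ratio of 1.195 in run A and 4.72 in run B. H2-Aa was at 13.1 and 6.02 CPM on chow and at 28.7 and 29.9 on high fat, with no overlap, and H2-Eb1 at 5.25 and 6.02 on chow and at 2.87 (1 UMI) and 29.9 on high fat. H2-Ab1 went from 18.4 to 2.87 CPM in run A (14 UMIs and 1) and from 7.02 to 34.2 in run B. H2-Ab1, H2-Eb1 and H2-DMa (3.94 to 2.87 CPM in run A, 3.34 to 7.63 in run B) were thus the lower on high fat in run A and the higher in run B. Without the block the log2 difference of Cd74 was 1.72 ± 0.74 and the median over 6 tested members 1.67, beside -0.01 for all genes. With run as a block, Cd74 (1.85 ± 0.46, edgeR adjusted p = 0.033), H2-Aa (1.82 ± 0.43, 0.024) and H2-Eb1 (1.86 ± 0.50, 0.0497), whose runs went opposite ways, passed, where 2.97% of genes did and 1.3% in the higher direction. The count was 0 without either run B mesentery library, and the arterial-like C1q and Lyz2 sum was 2.62 and 4.68 CPM on chow and 5.75 and 31.5 on high fat, higher in both runs. In run A that sum rested on 2 UMIs on chow and 2 on high fat. In cells with no immune marker UMI, 5 of 5 tested members passed with the block, where 2.51% of genes did, Cd74 at 2.43 ± 0.51 (edgeR adjusted p = 0.0098).

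The 2 arterial-like clusters differed in this. In cluster 6, led by Gkn3, Igf2 and Gja5, mesentery Cd74 was 16.5 and 15.8 CPM on chow and 8.02 and 206 on high fat, and adipose Cd74 was 85.5 and 26.8 on chow, then 41.2 and 204 on high fat. In cluster 4, led by Col8a1 and Slc6a6, mesentery Cd74 was 0 and 34.1 on chow, then 40.5 and 39.1 on high fat, and adipose Cd74 was 6.52 and 11.8 on chow, then 57.1 and 24.0 on high fat. The highest values were those of cluster 6 in run B on high fat, in both tissues, and these were not tested. Cluster 6 made up 77.1% and 63.9% of arterial-like cells in mesentery chow and 60.2% and 33.5% in mesentery high fat.

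In capillary-like cells of adipose tissue, Cd74 stood at 11.6 (2 UMIs) and 6.34 CPM on chow and 15.9 (5 UMIs) and 49.4 on high fat. The high-fat values were both above the chow values, by 1.37 times in run A and 7.80 in run B. Without the block the log2 difference was 2.43 ± 1.23; with it 2.52 ± 0.54 (edgeR adjusted p = 0.0076), the only one of 6 tested members to pass, where 0.759% of genes did and 0.281% higher. The call was lost without adipose chow B, adipose high fat B or mesentery high fat B. Macrophage transcripts were higher here too: C1q and Lyz2 summed to 0 (0 UMIs) and 10.1 CPM on chow and 35.0 (11 UMIs) and 125 on high fat. Macrophage-like cells were 0.603% of adipose chow B and 13.0% of adipose high fat B. In cells with no immune marker UMI Cd74 still passed with the block (2.26 ± 0.56, edgeR adjusted p = 0.023; 0.732% of genes passed). The class was mostly cluster 2 in adipose chow B (85.6%) and mostly cluster 1 in adipose high fat B (93.6%), and within run B Cd74 was 5.50 and 49.6 CPM on chow and high fat in cluster 1 and 6.41 and 47.6 in cluster 2.

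In lymphatic-like cells Cd74 was the higher on high fat in both tissues and both runs. It stood at 36.7 and 82.4 CPM on chow and 85.3 and 185 on high fat in mesentery, and at 16.1 and 62.0 on chow, then 36.0 and 417 on high fat in adipose tissue. In mesentery both high-fat values lay above both chow values, at 2.32 and 2.25 times within the runs. In adipose tissue the groups overlap across runs and not within them, at 2.23 and 6.73 times. In adipose tissue the log2 difference was 2.54 ± 1.04 without the block and 2.32 ± 0.41 with it (edgeR adjusted p = 0.048), 1 of 5 tested members, where 0.0454% of genes passed and 0.034% higher. That call was lost without adipose chow B or adipose high fat B, and in cells with no immune marker UMI (1.46 ± 0.39, edgeR adjusted p = 0.67; 0% of genes passed). In mesentery the blocked log2 difference was 1.30 ± 0.39 (edgeR adjusted p = 0.0997; 1.79% of genes passed), and 1.77 ± 0.35 in cells with no immune marker UMI (edgeR adjusted p = 0.019; 1.16% of genes passed). The C1q and Lyz2 sum was 2.53 and 12.0 CPM on chow and 3.05 and 17.5 on high fat in mesentery. In adipose tissue it was 2.30 and 5.07 on chow, then 12.4 and 33.3 on high fat. Its run A values rested on 2 and 4 UMIs in mesentery and 2 and 10 in adipose tissue (chow first).

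In venous-like cells the runs disagreed on the diet. Mesentery Cd74 was 1137 CPM (2861 UMIs) on chow and 299 on high fat in run A, and 191 on chow and 515 on high fat in run B. Adipose Cd74 was 214 on chow and 123 on high fat in run A, and 63.6 on chow and 208 on high fat in run B. High fat was lower than chow in run A (0.263 and 0.576 times) and higher in run B (2.70 and 3.27 times), with counts of 30 UMIs or more behind each value. The log2 difference was -0.82 ± 0.88 in mesentery and 0.32 ± 0.92 in adipose tissue, and no member passed with the block (0.159% and 0.109% of genes did). Cluster 8 made up 73.9% and 75.2% of venous-like cells in mesentery chow and 53.85% and 26.8% in mesentery high fat. The makeup of the class thus differed between diets as well. The C1q and Lyz2 sum was higher on high fat in both runs and tissues, also in run A, where Cd74 was lower. In mesentery it was 2.38 and 6.53 CPM on chow and 8.54 and 32.1 on high fat. In adipose tissue it was 5.79 and 12.4 on chow, then 41.1 and 97.2 on high fat. Its run A values rested on only 6 and 2 UMIs in mesentery and 1 and 10 in adipose tissue (chow first).

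**Figure D4:**
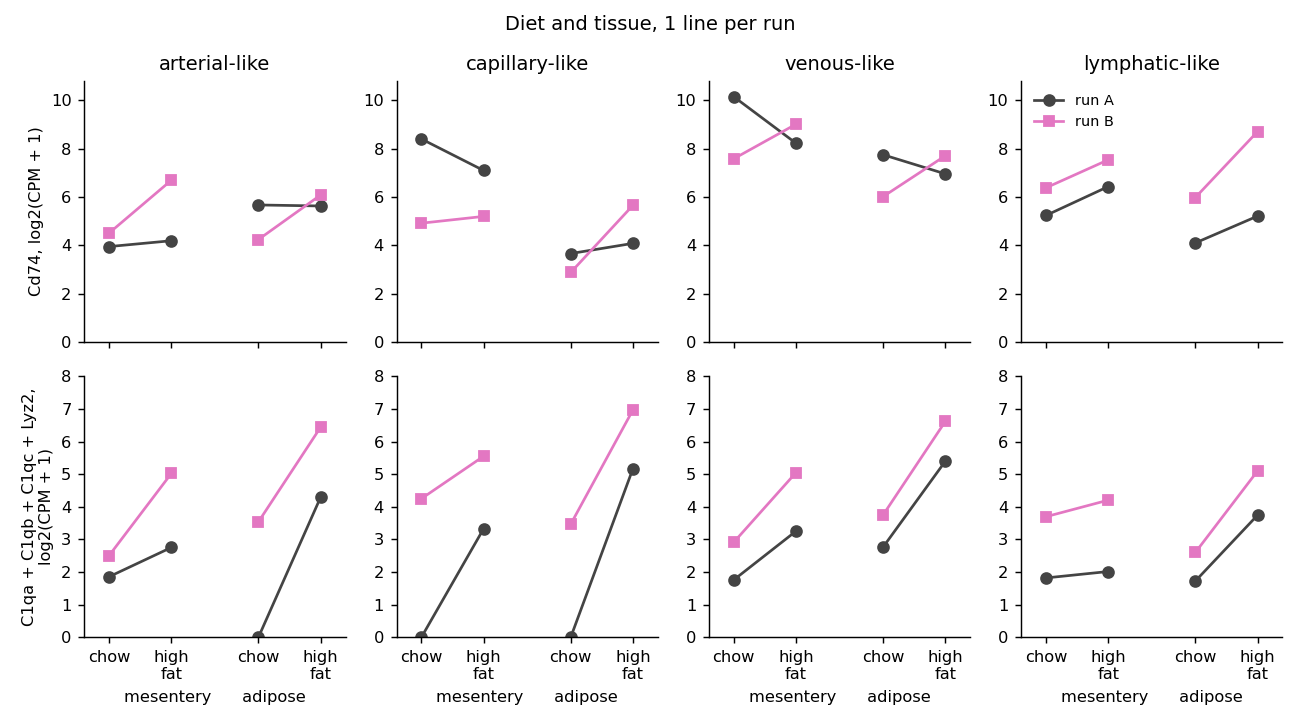
Cd74 (upper row) and the sum of C1qa, C1qb, C1qc and Lyz2 (lower row) as log2(CPM + 1) on chow and on high fat, with 1 line per run and tissue, in the 4 endothelial classes (columns). The macrophage sum goes up from chow to high fat in all 16 lines, while Cd74 goes down in both run A lines of venous-like cells, and in run A in capillary-like cells of mesentery and arterial-like cells of adipose tissue. The run A points of the macrophage sum rest on only 0 to 11 UMIs each.

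The part of macrophage RNA in these diet differences was not tested beyond leaving out the cells that held immune marker UMIs. In bulk sums of a class, more cells with a transcript and more transcript per cell cannot be told apart.

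Between tissues, venous-like class II transcripts on chow were higher in mesentery than in adipose tissue. H2-Ab1 stood at 247 and 76.6 CPM in mesentery and 63.7 and 14.5 in adipose tissue, and H2-DMb1 at 80.2 and 37.7 in mesentery and 29.0 and 10.4 in adipose tissue. The groups do not overlap for either gene, whereas Cd74 at 1137 and 191 in mesentery and 214 and 63.6 in adipose tissue overlaps across runs. Without the block the log2 differences were 2.42 ± 0.87 for H2-Ab1 and 2.03 ± 0.67 for H2-DMb1, and neither passed. With run as a block both did (2.51 ± 0.56, edgeR adjusted p = 0.022, and 1.92 ± 0.46, 0.037), 2 of 6 tested, where 1.91% of genes passed, 0.895% higher and 1.01% lower, and Cd74 did not (2.35 ± 0.62, edgeR adjusted p = 0.063). Without adipose chow B no member passed, and in cells with no immune marker UMI the same 2 genes did, where 1.85% of all genes passed. Cluster 7 was 26.1% and 24.8% of venous-like cells in mesentery chow and 97.0% and 82.4% in adipose chow, cluster 8 being the rest, so the makeup of the class differed between tissues as well. Within cluster 7, Cd74 was 1112 and 84.3 CPM in mesentery chow and 222 and 53.3 in adipose chow. On high fat venous-like Cd74 was 299 and 515 CPM in mesentery and 123 and 208 in adipose tissue, with no overlap, at log2 1.23 ± 0.90, and no member passed with or without the block (0.109% of genes did with it).

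In capillary-like cells on chow Cd74 was 337 (46 UMIs) and 29.2 CPM in mesentery and 11.6 (2 UMIs) and 6.34 in adipose tissue. Cluster 2 was 27.1% and 51.1% of capillary-like cells in mesentery chow and 14.7% and 85.6% in adipose chow. The makeup of the class thus differed between these libraries as well. The mesentery values of Cd74 were both the higher, by 29.0 times in run A and 4.603 in run B. The log2 difference was 4.56 ± 1.30 without the block and 3.30 ± 0.58 with it (edgeR adjusted p = 0.0029), 1 of 6 tested, where 0.197% of genes passed, 0.122% higher and 0.0749% lower. It was lost without adipose chow B or mesentery high fat B, and remained in cells with no immune marker UMI (3.37 ± 0.57, edgeR adjusted p = 2.0e-04; 0.32% of genes passed). Over all endothelial cells, Cd74 was 737 and 178 CPM in mesentery chow, 214 and 157 in mesentery high fat, 66.9 and 20.3 in adipose chow and 64.4 and 112 in adipose high fat, so the 4 mesentery values lay above the 4 adipose values. The log2 difference on chow was 3.47 ± 0.93, and neither fit called a member there (0.416% of genes passed with the block, lowest member adjusted p 0.103 in edgeR). These sums differ in makeup between tissues. Venous-like cells were 556 of 1276 and 741 of 3859 endothelial cells in mesentery chow, and 100 of 1328 and 262 of 4503 in adipose chow. The part of makeup in the difference was not tested. No member passed the interaction of tissue and diet in any class, with or without the block.

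The other comparisons with run as a block called no member. In arterial-like cells the share of all genes called was 0.223% for diet in adipose tissue, 3.17% for tissue on chow, 0.126% for tissue on high fat and 0.00969% for the interaction. In capillary-like cells it was 0.497% for diet in mesentery, 0.0375% for tissue on high fat and 0% for the interaction. The log2 difference of arterial-like Cd74 between mesentery and adipose tissue was -0.66 ± 0.79 on chow and 0.09 ± 0.71 on high fat without the block. In lymphatic-like cells the share was 1.46% for tissue on chow, 0.159% for tissue on high fat and 0.136% for the interaction, and in all endothelial cells 0.00756% for diet in adipose tissue and 0% for diet in mesentery, for tissue on high fat and for the interaction. The share for the interaction was 0% in venous-like and 0.146% in macrophage-like cells. Leaving out 1 library brought up to 3 members past the threshold for diet in adipose arterial-like cells (without mesentery chow A) and up to 4 for tissue on chow in all endothelial cells (without mesentery chow B).

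Macrophage-like cells held the members at 4 run B values each, in the order mesentery chow, mesentery high fat, adipose chow and adipose high fat: H2-Aa at 5493, 4362, 3635 and 2585 CPM, and H2-Ab1 at 5711, 3764, 3131 and 2137. For both genes, and for Cd74 and H2-Eb1, chow was above high fat within each tissue and mesentery above adipose tissue on the same diet. In run A only 8 to 17 cells were found in the 3 libraries with at least 5, and their Cd74 (14230 in mesentery high fat, 13230 in adipose chow and 14620 in adipose high fat) did not follow that order. The class was also not alike in the run B libraries. Its C1q and Lyz2 sum was 8721 CPM in mesentery chow, 21350 in mesentery high fat, 14770 in adipose chow and 24670 in adipose high fat. The part of its makeup in the class II levels was not tested. With 5 cells as the minimum, a limit set after the counts were seen, no member passed for diet or tissue with run as a block, where 0.219% to 1.36% of genes passed (tissue on chow: Cd74 1.02 ± 0.30, edgeR adjusted p = 0.159).

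The pathway around the class II genes was followed with 7 lists of 46 genes in all. Between venous-like and arterial-like cells, where 18.4% of all genes passed, the lists gave these counts. Of 7 tested genes of peptide loading and breakdown, 2 were higher in venous-like cells and 0 lower (median log2 0.46): the lysosomal proteases Lgmn (1.26 ± 0.24) and Ctsb (0.55). Of 8 genes of interferon gamma signalling, 3 were higher (median 0.01), the factor Irf8 (4.13 ± 0.48) and the kinases Jak2 (0.83) and Jak1 (0.77). Of 8 interferon gamma target genes 2 were higher, Cxcl10 (1.63) and Iigp1 (1.06), and the median was 0.33. None of 4 other class II genes passed. Of 5 regulators of class II promoters 1 was lower, Rfxap (-1.07), of 5 co-stimulatory and checkpoint genes 1 was lower, Cd40 (-1.53), and of 4 partners of Cd74 1 was lower, the chemokine receptor Cxcr4 (-3.58).

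In lymphatic-like against arterial-like cells, where 35.9% of all genes differed (17.2% higher, 18.7% lower), 4 of 8 interferon gamma targets were lower and none higher (median -0.94), among them Cxcl9 (-3.20), Gbp4 (-1.59) and Igtp (-1.07), while Irf8 (3.78) was higher, and Irf1 (-1.61) and the receptor chain Ifngr1 (-1.49) were lower. Venous-like exceeded lymphatic-like cells for 6 of 8 targets (median 1.33; 31.3% of all genes differed, 16.8% higher), such as Cxcl9 (4.17) and Gbp4 (2.03). Capillary-like cells held more Cxcl9 than venous-like cells (1.91), the only target of 8 that differed (20.3% of all genes did), and less Ctsh (-6.73), a cathepsin, and Lgmn (-2.46). Capillary-like cells thus had more Cxcl9 and fewer class II transcripts than venous-like cells. Unlike the class II genes, Cxcl9 was not left out of clustering, and it was a leading gene of capillary-like cluster 2. That cluster was 85.6% of capillary-like cells in adipose chow B and 6.39% in adipose high fat B.

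Against the endothelium 57.8% of all genes differed in macrophage-like cells (30.9% higher, 26.9% lower) and 47.4% in B cell-like cells (20.6% higher, 26.8% lower). In macrophage-like cells 7 of 8 interferon gamma targets were lower and none higher (median -2.18; Gbp6 -4.21, Gbp4 -4.14), and in B cell-like cells 5 were lower and none higher. Peptide loading genes were higher in macrophage-like cells for 6 of 7 tested, with Ctss (9.59), the protease that trims the invariant chain, March1 (8.67), the ligase that removes class II from the surface, and Ctsb (3.69) among them. In B cell-like cells 3 were higher and 3 lower (Ctss 7.61, March1 9.93, Ctsb -2.19). All 5 tested co-stimulatory and checkpoint genes were higher in B cell-like cells and 4 in macrophage-like cells, with Cd86 at 9.31 in the latter. Over the diet and tissue comparisons edgeR called 0 of 1020 list gene tests without the block, where 28 had an unadjusted p under 0.05, and 13 with it. Those included Ctss in adipose capillary-like cells on high fat (4.16 ± 0.77, edgeR adjusted p = 0.0013; 0.759% of genes passed). The C1q and Lyz2 sum was higher there too, and the part of macrophage RNA in the Ctss value was not tested. Gbp4 passed in mesentery lymphatic-like cells (1.32 ± 0.28, edgeR adjusted p = 0.015; 1.79% of genes passed). Ctsl passed in macrophage-like cells of adipose tissue on high fat (2.44; 1.36% of genes passed). In mesentery, where chow had 1 library in the fit, its log2 difference was 3.099.

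Across the 32 sums of the 4 endothelial classes, the genes most like Cd74 among 11749 were other members. Pearson's r of log2(CPM + 1) with Cd74 was 0.93 for H2-Ab1 and for H2-Eb1, 0.87 for H2-Aa and 0.82 for H2-DMb1, which took the first 4 ranks, 0.65 for H2-DMa (rank 16) and 0.54 for Ciita (rank 71). The 5 nearest genes outside the members were Ifitm3 (0.78), Csrp2 (0.73), Xbp1 (0.73), Il6st (0.71) and Rps24 (0.70). Sums of a library share its depth and its mice, and the lower values of H2-DMa and Ciita go with their low counts, so these are descriptions.

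Cd74 was not bound to the chains in every cluster. In the venous-like class Cd74 had 2.96 UMIs per H2-Aa UMI, close to the 2.92 of arterial-like, 2.61 of capillary-like, 3.1 of lymphatic-like, 2.64 of macrophage-like and 3.94 of B cell-like cells. In cluster 13, an unnamed endothelial cluster of 540 cells from mesentery led by Marco, Bmp2 and Cd55, the ratio was 15.9. Cd74 stood there at 562 CPM in mesentery chow A, 537 in mesentery chow B and 376.8 in mesentery high fat A, and was found in 72.6% of the cells, whereas H2-Aa was at 33.3 CPM over all its cells and in 12.2% of them. H2-Aa was 5.91% of the UMIs of both genes (exact 95% binomial interval 4.94 to 7.02), below the share in each named class. Cluster 20, an unnamed endothelial cluster of 349 cells led by Glycam1 and Madcam1, which mark the venules where lymphocytes enter lymphoid tissue, had Cd74 at 738 CPM and 5.36 Cd74 UMIs per H2-Aa UMI. Both clusters were picked once their values were known, and their ratios were not tested.

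**Figure D5:**
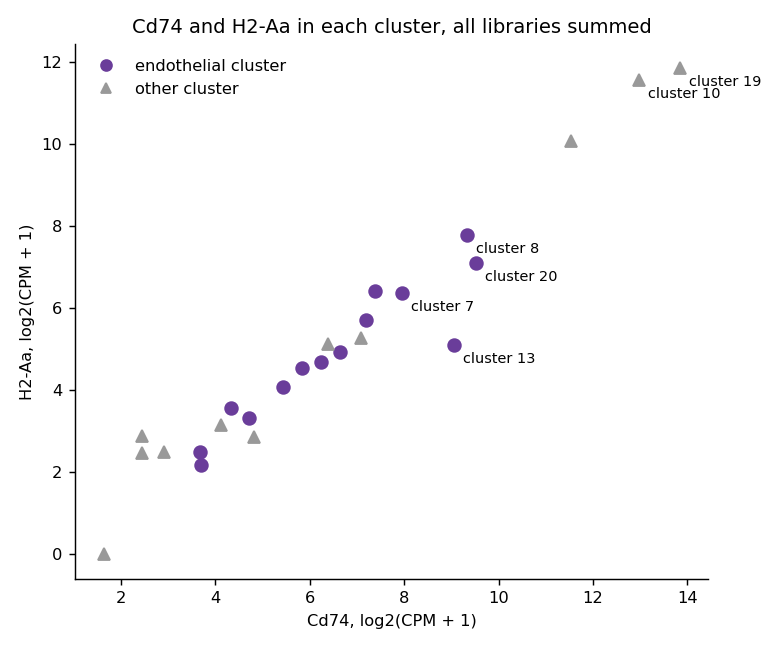
Cd74 against H2-Aa for each cluster, both as log2(CPM + 1), summed over all libraries, with circles for endothelial and triangles for other clusters. Most clusters lie along 1 band, clusters 19 (B cell-like) and 10 (macrophage-like) at its upper end, and cluster 13 lies below it, with much Cd74 (529.5 CPM) for its H2-Aa (33.3 CPM).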

How the data were processed

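Raw UMI counts per gene and cell barcode are the values the authors deposited, 1 matrix per library. Per the file headers they were written by software version 3.0.2 (run A) and 5.0.0 (run B), and the submitters' processing notes name mm10 and Seurat 4.3.0. No aligner or annotation version is given in the sources used here. The members and gene lists were chosen with earlier results of these data known. Genes were joined by identifier. Barcodes were kept from 500 UMIs and 300 genes upwards if no more than 10% of UMIs were mitochondrial (23970 of 27944). Doublets were called by score in each library: the automatic threshold marked 45 cells (0.188%), so the highest-scoring 935 cells were removed instead. Clustering used scanpy 1.11.5 and leidenalg 0.10.2 on 2000 variable genes, 30 principal components, 20 neighbours and a resolution of 1.0, in Python 3.11.15, without the class II genes, and clusters were named from marker lists; the rest stayed unnamed. UMIs were summed per library and class where at least 20 cells were present (macrophage-like cells by diet and tissue, 5). EdgeR 4.0.16 (R 4.3.3; TMM, filterByExpr, quasi-likelihood test, Benjamini-Hochberg adjustment over all genes, threshold 0.05) was run on those sums, with the library as a block between classes and with group means only for diet and tissue; the standard error is the log2 difference over the root of F. DESeq2 1.42.0 was an alternative. Scripts were tested on simulated data. Libraries of the same run correlated in their deviations from the group means in every one of 6 pairs of groups (lowest r 0.324 in capillary-like, highest 0.755 in all endothelial cells), and the labels say the experiment was repeated, so runs pair the samples. All 7 members are named; of each list, the called genes with the lowest p, at most 3; and the 5 genes most like Cd74. Nothing in the labels says that pools shared mice, and p-values measure the spread between pools.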

Additional observations from a re-analysis of the deposited data

How the results depend on the processing

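The alternatives were DESeq2, its size factors in edgeR, no filter on low counts, doublets kept, a mitochondrial limit of 20%, 37 clusters at a resolution of 2.0, endothelial cells with no immune marker UMI, run as a replicate block and each library left out. Of all recomputed counts of members, 613 lay within 1.5 times the reported count and 19 did not. Of single differences 20 lost and 41 gained a call, and 0 were reversed. With the replicate block, members called went from 0 to 3 (diet, mesentery arterial-like), 1 (diet, adipose capillary-like), 1 (tissue on chow, capillary-like), 2 (tissue on chow, venous-like) and 1 (diet, adipose lymphatic-like), and no other call changed. With the block and without cells holding immune marker UMIs, chosen after seeing the data, the counts were 5, 1, 1 and 2 in the first 4, 1 for diet in mesentery lymphatic-like cells and 0 for diet in adipose lymphatic-like cells. With no filter on low counts they were 1 (diet, mesentery arterial-like), 1 (tissue on chow, capillary-like), 4 (tissue on chow, venous-like) and 2 (diet, adipose lymphatic-like) without the block. DESeq2 called 1 member for tissue on chow in all endothelial cells. Lymphatic-like against arterial-like cells gave 3 members in cells with no immune marker UMI and 2 to 6 when leaving out 1 library. Leaving out 1 library from the blocked fits gave 0 to 5, 0 to 4, 0 to 2, 0 to 6 and 0 to 4 members in the 5 comparisons above, in that order. With 2 pools a group and 1 to 20 UMIs behind many run A values, low members such as Ciita limit what these data can show.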

Other observations

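T cell-like cells held H2-DMa with little H2-DMb1. H2-DMa stood at 35.5 and 54.2 CPM in mesentery chow and 55.7 and 76.7 in mesentery high fat (runs A and B), while H2-DMb1 had 7 UMIs in T cell-like cells against 77 for H2-DMa, over the 7 libraries with at least 20 cells. At 1000 UMIs per cell, H2-DMa was found in 3.35% of T cell-like cells, H2-DMb1 in 0 of 388, and Cd74 in 2.06%. Venous-like cells had more H2-DMb1 than H2-DMa (492 and 306 UMIs) and B cell-like cells less (139 and 480). In T cell-like cells of mesentery high fat B, Cd74 was 294 CPM, beside 29.5 to 54.2 in the other 3 mesentery libraries, and 1 of the 52 cells held 84.4% of the members' 211 UMIs there.

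Cluster 21, which stayed unnamed because its leading genes mark proliferation (Mki67, Top2a), held 333 cells, with Cd74 at 2982 CPM and H2-Aa at 1077. Cd74 was found in 49.8% of its cells, and the Cd74 to H2-Aa ratio of 2.77 lay within the range of the named classes. Its leading genes include macrophage genes (Lyz2, C1qa), and it held markers of several classes, so no level is assigned to a cell type. Cluster 22, led by Apln and Prnd, which mark endothelial tip cells, was at the low end of the endothelium, with Cd74 at 12.0 CPM and H2-Aa at 3.505 CPM over 271 cells.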
